A study of Mus musculus with 14 samples.

Results

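Expression of SAP and 6 receptors of the SLAM family was examined in regulatory T cells (Tregs) with and without miR-15/16, and in Tregs sorted by their level of CD25. The set was chosen by gene name and holds 7 genes, Sh2d1a (SAP), Slamf1, Slamf6, Slamf7, Ly9, Cd84 and Cd48, of 48363 genes with values in the table. All 7 were among the 16241 genes that passed the filter of 10 normalized counts in 2 libraries, and each was above that level in every library. A normalized count is a number of reads in a gene divided by the size factor of its library.

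The 14 RNA-seq libraries held 5 of cKO Tregs, taken from miR-15/16 fl/fl mice that carry Foxp3 Cre, and 4 of WT Tregs, taken from miR-15/16 wt/wt mice that carry Foxp3 Cre. The other libraries were 2 of CD25lo and 3 of CD25hi Tregs, sorted from the same kind of miR-15/16 wt/wt mice. All groups therefore carried the YFP-tagged Cre at the endogenous Foxp3 locus, and in cKO mice it deleted both loxP-flanked clusters, Mirc30 (which encodes miR-15a and miR-16-1) and Mirc10 (which encodes miR-15b and miR-16-2), in cells that had already turned on Foxp3. Live CD4+ FOXP3-YFP+ cells of untreated mice were taken from spleen pooled with inguinal, axillary and brachial lymph nodes. The age of these mice and the number of mice behind each library were not stated in the labels, so the p-values measure the spread between these libraries.

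SLAM family receptors are surface proteins of blood cells that mostly bind their own kind on a neighbouring cell. CD48 differs in being held in the membrane by a lipid anchor and in binding CD244 and CD2. The tails of most, though not all, of the other receptors carry tyrosine motifs that are bound by SAP. This small adaptor is made of little more than an SH2 domain, and it brings the kinase FYN to the receptor and keeps inhibitory phosphatases away. In T cells SAP is known for its part in stable contacts with B cells and in help to germinal centers, and its loss in humans causes X-linked lymphoproliferative disease.

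The deleted miRNAs share the seed at bases 2 to 8, shown in capitals because a target is recognized by pairing with it. The mature sequences, from RefSeq on GRCm38.p6, are
mmu-miR-15a-5p: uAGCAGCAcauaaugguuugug
mmu-miR-15b-5p: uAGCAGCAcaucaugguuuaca
mmu-miR-16-5p: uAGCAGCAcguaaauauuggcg
The miR-15a and miR-16-1 genes lie on chromosome 14 and the miR-15b and miR-16-2 genes on chromosome 3, whereas the SLAM receptors lie on chromosome 1 and Sh2d1a on chromosome X.

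Matches to the seed were searched on the transcript strand of the longest annotated 3′ UTR of each gene, as TGCTGCT, as GCTGCTA or as the 8 bases TGCTGCTA that hold both and were counted once. Slamf6 had 2 matches in a 3′ UTR of 4480 bases, Slamf1 had 2 in 1561 bases and Ly9 had 1 in 2289 bases. Sh2d1a (616 bases), Cd48 (381 bases), Cd84 (2918 bases) and Slamf7 (2522 bases) had 0, in this UTR and in every other annotated one. The matches, shown with their flanks and with the matched bases in capitals, because they are where the deleted miRNAs could pair with a member, are
Slamf6 8-base match, chr1:171951989-171951996, plus strand: gtctgcctgcaTGCTGCTAtgcttcctgct
Slamf6 7-base match, chr1:171952254-171952260, plus strand: gcattcatgctTGCTGCTcttgttttatc
Slamf1 first match, chr1:171799825-171799831, plus strand: gcaacctgctcTGCTGCTgacacagatat
Slamf1 second match, chr1:171800310-171800316, plus strand: ctgtttggcaaTGCTGCTgtaaagttgcc
Ly9 match, chr1:171589042-171589048, minus strand: agggaaaagcgGCTGCTActtccggggtg
Both Slamf6 matches belong to the longer of its 2 annotated 3′ UTRs, and the shorter one, of 1318 bases, holds another 7-base match (chr1:171942844-171942850). The Ly9 match lies near the start of the 3′ UTR of the shorter Ly9 transcripts and far into that of the longest, which is annotated as subject to nonsense-mediated decay.

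**Figure D1:**
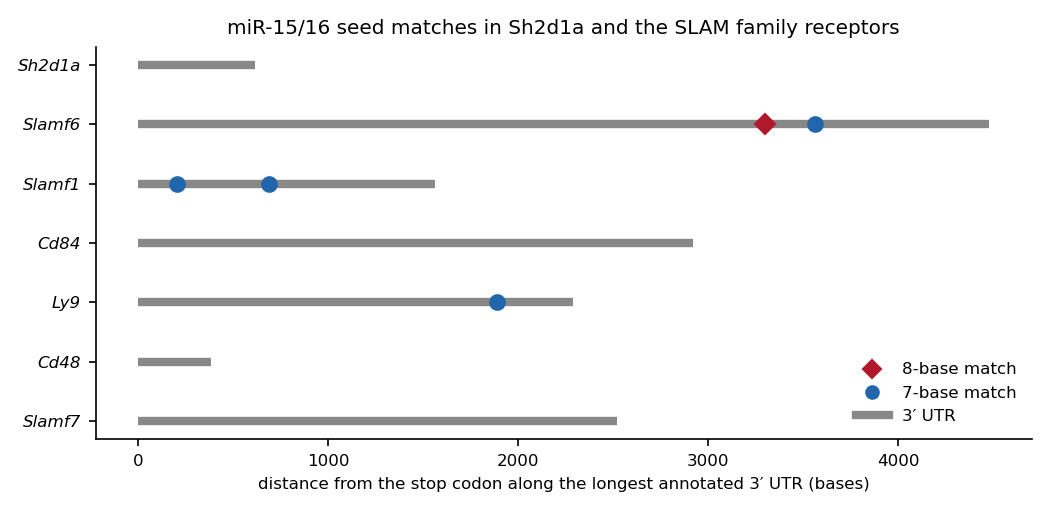
Seed matches of miR-15/16 in the longest annotated 3′ UTR of the 7 genes. The x axis gives the distance from the stop codon in bases, the grey bar the 3′ UTR, the diamond an 8-base match and each circle a 7-base match. Slamf6 holds 2 matches, Slamf1 2 and Ly9 1, and the other 4 genes hold 0.

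Of 12768 tested genes with an annotated 3′ UTR, 30.7% had at least 1 such match and 4.91% an 8-base match, as read in their longest UTR. Longer UTRs hold more matches by length alone. Among genes whose UTR was 80 to 125% as long, 62.9% had a match for the length of Slamf6, 30.4% for Slamf1, 43.7% for Ly9 and 15.6% for Sh2d1a. The share for Ly9 is that of its longest UTR. Its shorter UTRs with the match have 428 and 436 bases, and for the nearby length of Cd48, 381 bases, the share was 11.1%. A match is a run of letters in the annotation and says nothing of binding in these cells.

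The labels of the libraries were checked before the genes were compared. Libraries held 30055573 to 35226685 reads in genes. The number of genes with a read differed more, at 16697 to 18200 in cKO, 13920 to 17198 in WT and 13723 to 16174 in CD25-sorted libraries. Foxp3 was at 14546 to 24370 normalized counts, Cd4 at 35747 to 45018 and Cd3e at 30011 to 40063 over the 14 libraries. Il2ra, which encodes CD25, was at 14682 to 15027 in CD25lo and 39583 to 41188 normalized counts in CD25hi Tregs. The 4 deleted miRNA genes were listed at 0 in every library, so their loss could not be read here. All 5 cKO libraries and WT replicate 3 were female by Xist and Y-linked genes, and the other 3 WT libraries and all CD25-sorted ones were male. WT replicate 4 stood apart in 22 immediate early and stress genes, induced rapidly when cells are handled, with a mean log2 level of 12.39 against 14.17 to 14.23 in the other WT libraries, 12.79 to 14.08 in cKO libraries and 12.15 to 12.62 in CD25-sorted libraries. Within the cKO group this level was 12.79 to 13.26 in replicates 1 to 3, and 13.77 and 14.08 in replicates 4 and 5. Over all genes WT replicate 4 also lay nearer to the CD25-sorted libraries, with a chi-square per gene of 37.9 to 50.8, than to the other WT libraries, with 87.9 to 104. The fold changes of the 7 genes between cKO and WT Tregs are given with and without WT replicate 3 and WT replicate 4. Without WT replicate 3 all cKO libraries are female and all WT libraries male, so genotype and sex cannot be told apart there.

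Several SLAM receptors are also found on B cells, myeloid cells and NK cells. Ms4a1, a B cell marker, was at 45.7 normalized counts at most and at 0 in every CD25-sorted library, Lyz2 was at 88.5 at most, Cd8a at 60.4 and Ncr1 at 12.2. Other markers of the same lists were higher. Cd79b averaged 623.4 normalized counts in cKO and 280.0 in WT Tregs and Cd72 875.8 and 637.4, neither called, while Csf1r reached 3159 and Adgre1 930.9 in a WT library, and Cd8b1 averaged 375.5 to 463.2 in the 4 groups. The summed level of 14 B cell markers was 20913 to 26840 normalized counts in cKO and 15887 to 21127 in WT Tregs, and most of it was Ighm, at 18561 to 24413 in cKO and 14065 to 19499 in WT Tregs. The summed level of 14 myeloid markers was 6681 to 10542 in cKO and 9278 to 15547 in WT Tregs, most of it Ctss. In exact two-sided permutation tests over libraries, adjusted over the 8 tests of 4 lists in 2 comparisons, neither difference between cKO and WT Tregs passed after adjustment (exact p = 0.0317 and adjusted p = 0.127 for each, with 0.0159 the smallest p that 5 against 4 libraries allow). Even at that smallest p, a list could pass the adjustment only if other lists came near it too. These tests therefore could not decide whether the marker sums differed. As single genes in the limma fit both main contributors were called between cKO and WT Tregs, Ighm higher by 0.39 on the log2 scale (adjusted p = 0.024) and Ctss changed by -0.46 (adjusted p = 0.000475). They were the only ones called of the 10 B cell and 13 myeloid markers tested. For CD25lo against CD25hi Tregs the smallest p is 0.2, so that no difference could be shown. The part of these markers in the results below was not tested. In bulk libraries, fewer cells of a type and less RNA per cell cannot be told apart.

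All but Slamf7 were abundant in Tregs, and their order can be compared once read counts are divided by exon length. Cd48, the lipid-anchored ligand, was highest, at 3360 normalized counts per kilobase of exon in cKO, 3585 in WT, 3670 in CD25lo and 3527 in CD25hi Tregs. Ly9 (CD229) followed at 2101 to 2216 in the 4 groups, then Slamf6 (Ly108) at 840.2 to 1187, Cd84 at 709.7 to 889.8 and Slamf1 (CD150) at 345.7 to 534.7. Sh2d1a was at 476.1 per kilobase in cKO, 265.1 in WT, 297.5 in CD25lo and 234.5 in CD25hi Tregs. Slamf7 (CRACC), best known from NK cells and plasma cells, was lowest at 45.0 to 92.2 per kilobase.

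**Figure D2:**
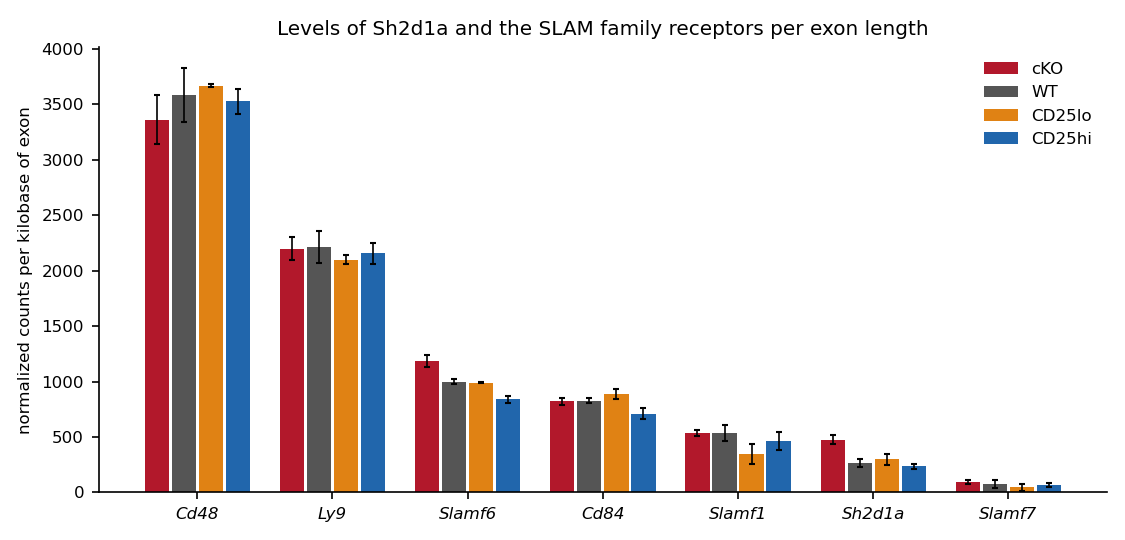
Levels of the 7 genes per exon length. Bars are group means in normalized counts per kilobase of annotated exon, error bars the SD over libraries (5 cKO, 4 WT, 2 CD25lo and 3 CD25hi). Cd48 and Ly9 stand above the other receptors in all 4 groups and Slamf7 below them, while Sh2d1a is highest in cKO Tregs.

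This order held in each group when the longest transcript replaced the union of exons, except that Sh2d1a then passed Slamf1 in cKO Tregs, at 954.4 against 743.2 per kilobase, and in CD25lo Tregs, at 596.4 against 481.5. By reads in the gene, Slamf6 ranked 527 of 23665 genes with a read, Ly9 967, Cd84 1472, Cd48 1875, Slamf1 2587, Sh2d1a 3944 and Slamf7 8430. These ranks are by normalized counts, which grow with gene length.

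Other receptors of the CD2 and SLAM group were mostly at very low levels. Cd244, the receptor for CD48 on NK cells, was at 0 to 52.4 normalized counts over the 14 libraries, Slamf8 at 0 to 21.9 and Slamf9 at 0 to 21.6. Cd2, an adhesion receptor of T cells that also binds CD48, was at 22478 ± 1738 in cKO (SD, n = 5) and 23490 ± 820.7 in WT Tregs (SD, n = 4). Sh2d1b1, which encodes EAT-2, a SAP-like adaptor of NK and myeloid cells, was at 0 to 34.4 normalized counts. Of this pair of adaptor genes, Sh2d1a was thus the more abundant in these libraries.

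The first comparison addresses what changes in Tregs that lack miR-15/16. Of the 7 genes, 2 were higher in cKO than in WT Tregs and 0 were lower, Sh2d1a by 1.8-fold and Slamf6 by 1.19-fold. In the same fit 3.52% of all genes tested were called and 2.04% were called higher. Among 5830 genes with a mean of at least 1000 normalized counts, where 6 of the 7 lie, 7.72% were called. The other 5 receptors did not pass, and the median log2 fold change of the 7 genes was 0.01, beside 0.05 over all genes tested.

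**Figure D3:**
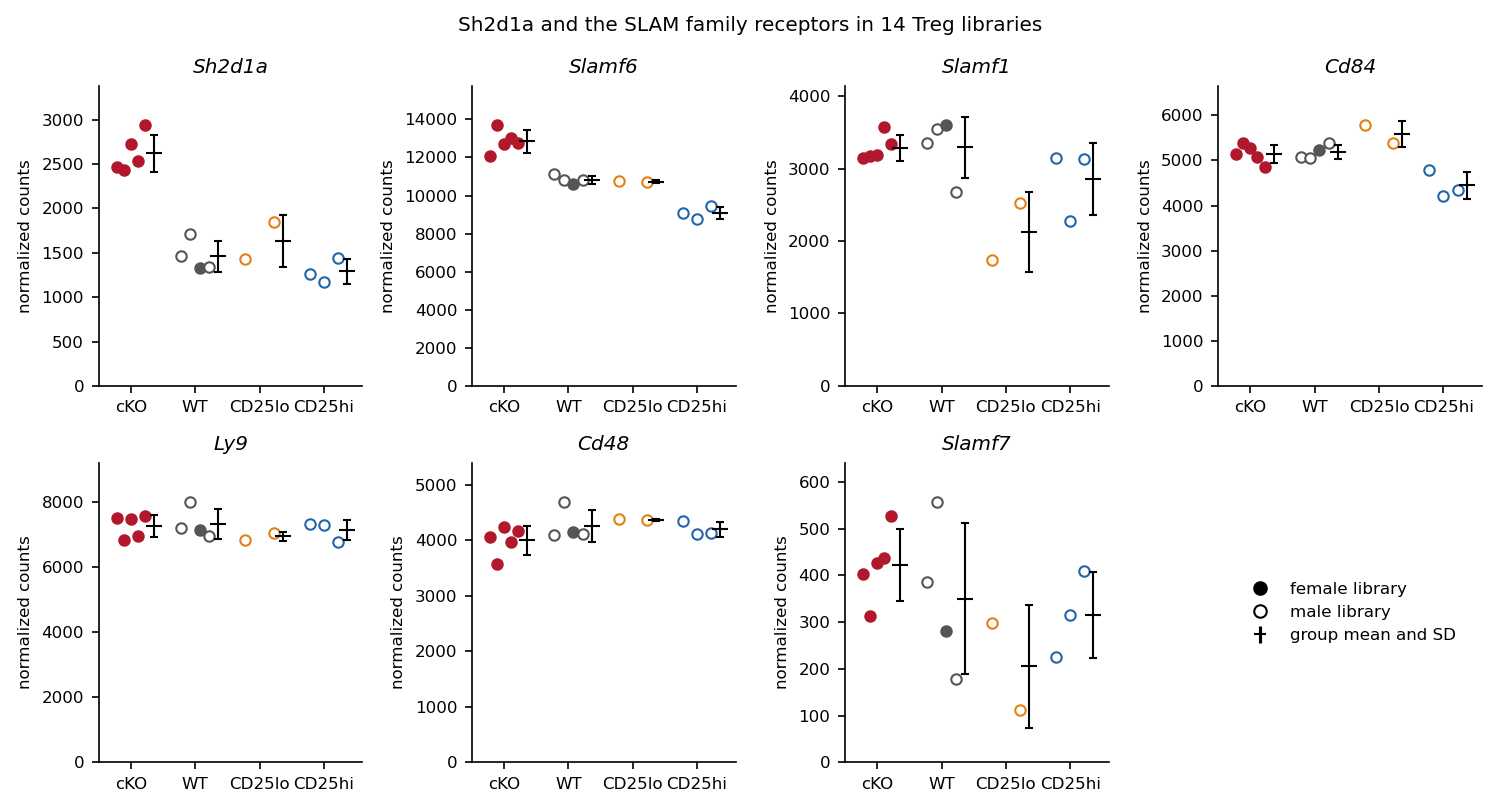
Normalized counts of Sh2d1a and the 6 receptors in each library, by group (cKO, WT, CD25lo, CD25hi). Each point is 1 library, filled where it is female and open where it is male, and the black bar is the group mean with its SD. The 5 cKO libraries lie above all others for Sh2d1a and for Slamf6, and cKO and WT libraries overlap for the other 5 genes.

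Sh2d1a (ENSMUSG00000005696, chrX:42502453-42529330, plus strand, GRCm38) encodes SAP, the adaptor of the family. It was at 2471, 2430, 2730, 2533 and 2940 normalized counts in cKO replicates 1 to 5. WT replicates 1 to 4 had 1463, 1709, 1330 and 1335. All 5 cKO libraries lay above every WT library, and also above every CD25lo and CD25hi library.

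The group means were 2621 ± 212.2 in cKO (SD, n = 5) and 1459 ± 177.6 in WT Tregs (SD, n = 4). The log2 fold change was 0.85 ± 0.11 (standard error, SE, with adjusted p = 0.000198 from limma), and Sh2d1a ranked 18 by p among all genes tested and 85 by size among the 332 genes called higher. Sh2d1a is X-linked and the groups differed in sex, with the female WT library at 1330 and the 3 male ones at 1335 to 1709. With library sex as a term, which sets the cKO libraries against WT replicate 3 alone, the log2 fold change was 0.97 (adjusted p = 0.0316). It was 0.81 without WT replicate 3 (adjusted p = 0.0012), a comparison of female cKO with male WT libraries that cannot tell genotype from sex. The log2 fold change was 0.81 without WT replicate 4 (adjusted p = 0.000592). With the immediate early level as a term it was 0.88 (adjusted p = 4.64e-05). Sh2d1a holds no seed match in an annotated 3′ UTR.

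Slamf6 (ENSMUSG00000015314, chr1:171917515-171953170, plus strand), a receptor of T and B cells that signals through SAP, was at 12056, 13699, 12720, 13027 and 12764 normalized counts in cKO replicates 1 to 5. WT replicates 1 to 4 had 11111, 10795, 10622 and 10796. The ranges did not overlap, though the step was small. The means were 12853 ± 593.1 in cKO (SD, n = 5) and 10831 ± 203.9 in WT Tregs (SD, n = 4), a log2 fold change of 0.25 ± 0.05 (SE, adjusted p = 0.0119).

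The call of Slamf6 depended on the fit more than that of Sh2d1a. With library sex as a term the log2 fold change was 0.27 with a standard error of 0.09 (adjusted p = 0.435), and with the replicate number as a block it was 0.25 (adjusted p = 0.0736). It was 0.24 without WT replicate 3 (adjusted p = 0.0401) and 0.24 without WT replicate 4 (adjusted p = 0.0214). Leaving out WT replicate 3 sets female cKO against male WT libraries, so genotype and sex cannot be told apart there. All 5 cKO libraries lay above the female WT library, at 10622. Slamf6 is the only one of the 7 genes with an 8-base match to the seed.

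The other 5 receptors gave overlapping ranges in cKO and WT Tregs. Slamf1, a receptor of activated lymphocytes with 2 seed matches, was at 3149 to 3578 normalized counts in cKO and 2672 to 3600 in WT Tregs (log2 fold change 0.01 ± 0.12 SE, adjusted p = 0.989). Cd84, which binds itself on T and B cells, was at 4849 to 5378 in cKO and 5061 to 5389 in WT Tregs (log2 fold change -0.01 ± 0.06 SE, adjusted p = 0.949). Without WT replicate 3 the log2 fold change was 0.05 for Slamf1 and -0.01 for Cd84, and without WT replicate 4 it was -0.09 for Slamf1 and 0.00 for Cd84.

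Ly9, with 1 seed match, was at 6846 to 7571 normalized counts in cKO and 6966 to 8017 in WT Tregs (log2 fold change -0.01 ± 0.06 SE, adjusted p = 0.966). Cd48 was at 3566 to 4233 in cKO and 4090 to 4692 in WT Tregs (log2 fold change -0.09 ± 0.07 SE, adjusted p = 0.552). Without WT replicate 3 the values were -0.02 for Ly9 and -0.10 for Cd48, and without WT replicate 4 they were -0.03 and -0.11, and none of these 4 genes was called in either fit. For these 4 genes the standard errors of 0.06 to 0.12 leave room for small differences in either direction.

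Slamf7 varied most between libraries, with an SD of 18.1% of the mean in cKO and 46.2% in WT Tregs, against 1.88% to 13.0% for the other 6 genes in WT Tregs. It was at 403.9, 314.3, 427.3, 438.1 and 527.2 normalized counts in cKO replicates 1 to 5. WT replicates 1 to 4 had 385.3, 558.0, 281.6 and 177.8. The log2 fold change was 0.37 ± 0.33 (SE, adjusted p = 0.642). It was 0.08 without WT replicate 4 (adjusted p = 0.934), 0.63 without WT replicate 2 (adjusted p = 0.389), 0.30 without WT replicate 3 (adjusted p = 0.734) and 0.59 with the immediate early level as a term (adjusted p = 0.263).

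**Figure D4:**
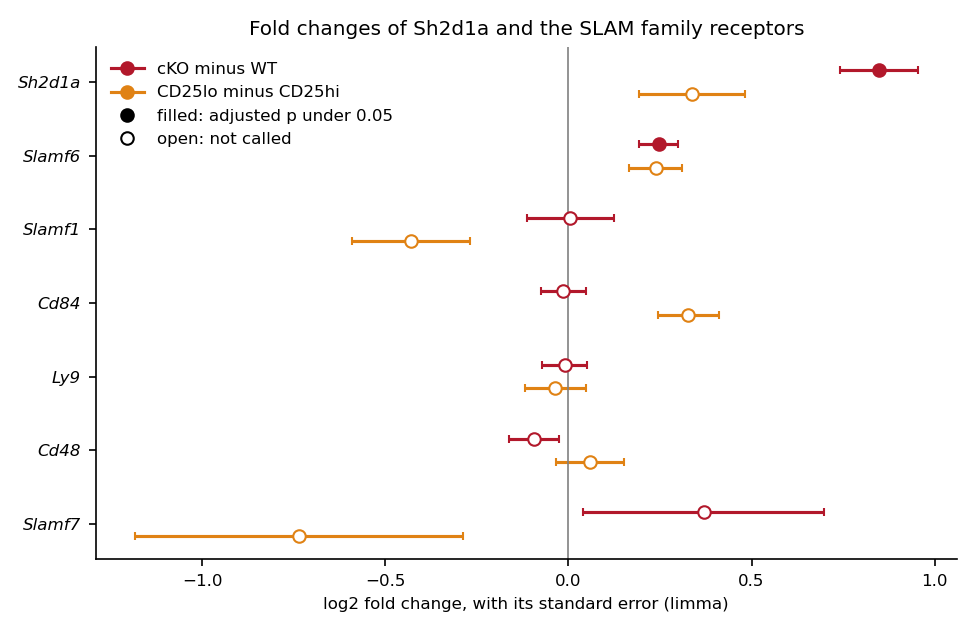
Log2 fold changes of the 7 genes, cKO minus WT (red) above CD25lo minus CD25hi (orange), with the standard error from limma. Filled points passed an adjusted p of 0.05 and open ones did not. Only Sh2d1a (0.85) and Slamf6 (0.25) are filled, both for cKO minus WT.

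The second comparison addresses how naturally occurring CD25lo Tregs differ from CD25hi Tregs. Of the 7 genes 0 were called with limma, where 1.62% of all genes tested were, and 4 were at an unadjusted p under 0.05, where 13.5% of all genes were. The 4 were Cd84, Slamf6, Slamf1 and Sh2d1a. With edgeR 0 were called, and with DESeq2 2 were, Cd84 and Slamf6, where 5.26% of the genes with an adjusted p were called. The median log2 fold change of the 7 genes was 0.06, beside 0.00 over all genes tested. With 2 CD25lo libraries the precision was lower than in the first comparison.

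Cd84 (ENSMUSG00000038147, chr1:171839697-171890718, plus strand) was at 5783 and 5378 normalized counts in CD25lo Tregs. It was at 4791, 4220 and 4342 in CD25hi Tregs. Both CD25lo libraries lay above the 3 CD25hi ones. The log2 fold change was 0.33 ± 0.08 (SE, adjusted p = 0.0545 from limma, and adjusted p = 0.00221 from DESeq2). The limma value fell under the threshold in 5 alternatives, at 0.0392 with a filter of 100 normalized counts, 0.0243 with the immediate early level as a term, 0.0437 without CD25hi replicate 1, 0.0472 without WT replicate 2 and 0.0419 without WT replicate 4. In the other limma alternatives it stayed above, among them 0.182 with only the CD25lo and CD25hi libraries, 0.164 with the replicate number as a block, 0.237 and 0.138 without CD25lo replicates 1 and 2, and 0.141 and 0.133 without CD25hi replicates 2 and 3.

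Slamf6 was at 10775 and 10689 normalized counts in CD25lo Tregs, against 9095, 8781 and 9426 in CD25hi Tregs. The ranges did not overlap, and the log2 fold change of 0.24 (standard error 0.07) did not pass with limma (adjusted p = 0.108) but passed with DESeq2 (adjusted p = 0.00597). The CD25lo libraries lay at the level of WT Tregs, where Slamf6 averaged 10831.

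Sh2d1a was at 1430 and 1845 normalized counts in CD25lo Tregs, against 1259, 1170 and 1444 in CD25hi Tregs. The lower CD25lo library lay within the CD25hi range. The log2 fold change was 0.34 ± 0.14 (SE, adjusted p = 0.305), and it was 0.52 without CD25lo replicate 1 and 0.15 without CD25lo replicate 2.

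Slamf1 was at 1737 and 2520 normalized counts in CD25lo Tregs, against 3145, 2281 and 3132 in CD25hi Tregs. The ranges overlapped, and the log2 fold change was -0.43 ± 0.16 (SE, adjusted p = 0.225), or -0.16 without CD25lo replicate 1 and -0.70 without CD25lo replicate 2. Slamf7 was at 299.1 and 113.0 in CD25lo Tregs, against 225.2, 314.7 and 408.8 in CD25hi Tregs. Its log2 fold change of -0.74 ± 0.45 (SE, adjusted p = 0.502) was -1.43 without CD25lo replicate 1 and -0.04 without CD25lo replicate 2.

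Ly9 and Cd48 did not pass between the sorted groups. Ly9 was at 6844 to 7054 normalized counts in CD25lo and 6776 to 7328 in CD25hi Tregs (log2 fold change -0.04 ± 0.08 SE, adjusted p = 0.901). Cd48 was at 4353 to 4374 in CD25lo and 4105 to 4349 in CD25hi Tregs (log2 fold change 0.06 ± 0.09 SE, adjusted p = 0.842). The Cd48 ranges lay just apart and those of Ly9 overlapped.

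Whether the 2 effects differed was tested as a contrast in the same fit, added after the data were seen. Of the 7 genes 0 passed with limma, where 1.03% of all genes did, and 3 were at an unadjusted p under 0.05, where 13.8% of all genes were. Sh2d1a, at 0.85 for cKO minus WT and 0.34 for CD25lo minus CD25hi, gave a difference of 0.51 ± 0.18 on the log2 scale (SE, adjusted p = 0.193 from limma). Cd84 gave -0.34 ± 0.10 (SE, adjusted p = 0.125) and Slamf1 0.44 ± 0.20 (SE, adjusted p = 0.342). Slamf6 gave 0.01 ± 0.09 (SE, adjusted p = 0.982).

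By group means, Sh2d1a ran in the order cKO, CD25lo, WT and CD25hi, and only cKO was set apart from its neighbour in that order, with a lowest value of 2430 above the highest CD25lo value of 1845. Slamf6 ran cKO, WT, CD25lo and CD25hi, with no overlap at either end and overlap in the middle between WT, at 10622 to 11111, and CD25lo, at 10689 to 10775. Cd84 was highest in CD25lo and lowest in CD25hi Tregs, and the ranges of CD25lo, WT and cKO overlapped in turn, while the lowest cKO value of 4849 lay above the highest CD25hi value of 4791. Slamf1 ran WT, cKO, CD25hi and CD25lo, and of the neighbours in that order only cKO and CD25hi did not overlap, by 3149 against 3145. The WT and cKO libraries also lay above both CD25lo libraries. For Ly9, Cd48 and Slamf7 every pair of neighbours in the order overlapped.

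The 6 receptor genes lie side by side on chromosome 1, within 364.5 kb from 171588624 to 171953170 on GRCm38. In order these are Ly9 (chr1:171588624-171607410, minus strand), Slamf7 (chr1:171632403-171653035, minus strand), Cd48 (chr1:171682009-171705258), Slamf1 (chr1:171767127-171801184), Cd84 and Slamf6. Of 41 other genes within 250 kb of a member on chromosome 1, 25 were tested. Between cKO and WT Tregs 0 of them were called with limma and 0 with edgeR, and 5 were at an unadjusted p under 0.05, where 16.1% of all genes were. With DESeq2 2 were called, Ncstn and Pea15a, where 9.3% of the genes with an adjusted p were. Between CD25lo and CD25hi Tregs 0 were called with limma, edgeR or DESeq2, and 2 were at an unadjusted p under 0.05. At the Sh2d1a locus 2 neighbours were tested, and 0 were called in either comparison with limma, edgeR or DESeq2. In the main limma fit Slamf6 was thus the only gene called in the chromosome 1 interval between cKO and WT Tregs, at a log2 fold change of 0.25, and Cd84, the member next to it, was at -0.01. With limma, 1 of the neighbours was called without WT replicate 3, and 1 without WT replicate 4.

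**Figure D5:**
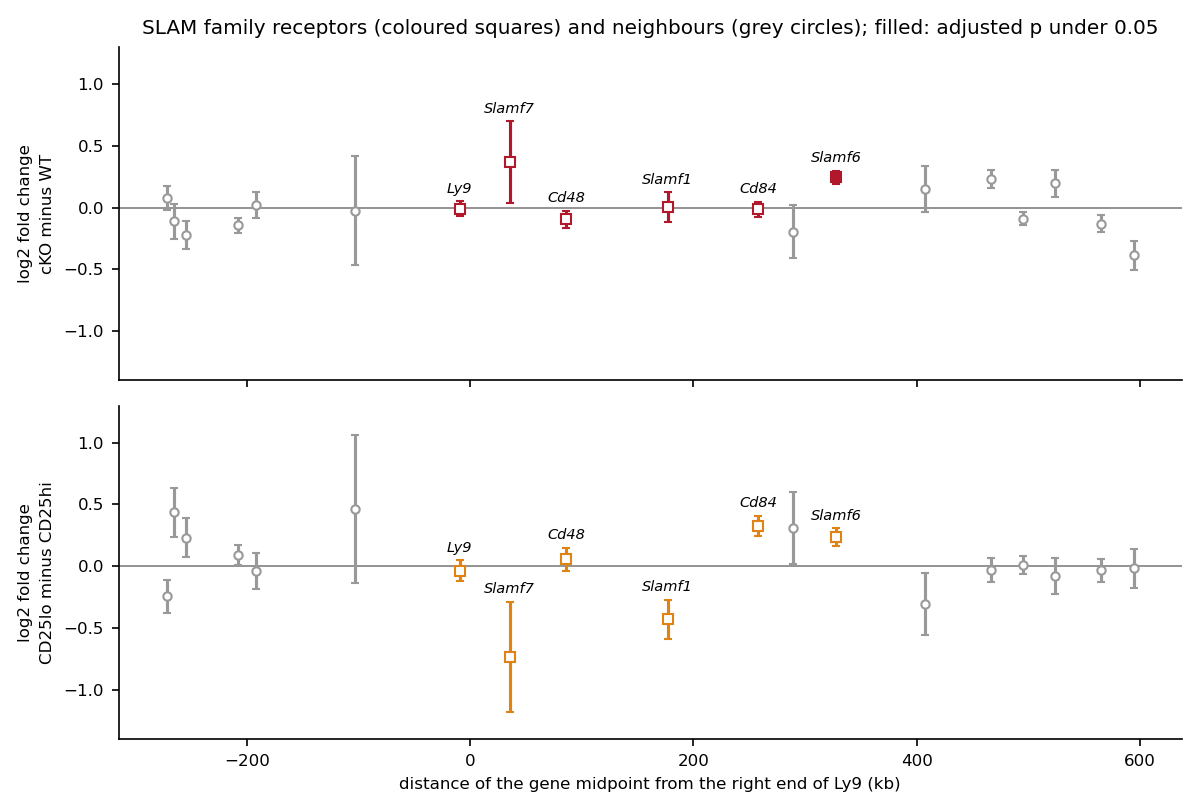
Log2 fold changes along the SLAM locus on chromosome 1, cKO minus WT above and CD25lo minus CD25hi below, with standard errors. The x axis is the distance of each gene's midpoint from the right end of Ly9 in kb, squares are the 6 receptors, and circles are tested neighbours with a mean of at least 100 normalized counts. Slamf6 in the upper panel is the only filled symbol, for an adjusted p under 0.05.

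Some genes overlap the members on the other strand, and whether reads were counted by strand is not given in the sources used here. Ly9 lies within the span of Cd244 and Slamf6 overlaps Gm37065 at its start, both on the opposite strand. Cd244 averaged 0.193% of the normalized counts of Ly9, and Gm37065 averaged 0.747% of those of Slamf6. Tenm1, which overlaps the end of Sh2d1a on the opposite strand, averaged 0.1% of its counts.

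Over the 14 libraries, Sh2d1a and Slamf6 varied together, with a Pearson r of 0.88 on the log2 scale. This is a description over libraries that share 4 groups. Slamf6 had an r of 0.55 with Cd84, 0.04 with Ly9 and -0.47 with Cd48. The r with the mean log2 level of the immediate early genes was 0.36 for Sh2d1a, 0.50 for Slamf6, 0.63 for Slamf1 and 0.59 for Slamf7. With the mean log2 level of the marker lists of other cells, Slamf1 had an r of 0.78 for B cells and 0.68 for myeloid cells. Slamf6 had 0.61 for B cells, 0.66 for plasma cells, 0.33 for myeloid cells and 0.63 for CD8 and NK cells, and Sh2d1a 0.48, 0.58, 0.23 and 0.43 for the same lists.

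Among 10299 other genes with a mean of at least 100 normalized counts, those whose pattern over the 14 libraries was most like Sh2d1a included Phlpp1, a phosphatase of AKT (r = 0.963), and Cdk17, a cyclin-dependent kinase (r = 0.951). Most like Slamf6 were Xylt1, which starts proteoglycan chains (r = 0.951), Cdk17 again (r = 0.946) and Slc4a7, a bicarbonate transporter (r = 0.938). For Slamf1 these were Emd, Acsf2 and Larp1b (r = 0.904 to 0.932), and for Slamf7 they were Osbpl3, Bspry and Top1 (r = 0.914 to 0.933). For Cd84 they were A530021J07Rik, Rnf14 and Esyt2 (r = 0.887 to 0.922). Cd48 was most like Pfdn2, a prefoldin subunit whose gene is one of the neighbours on chromosome 1 (r = 0.908), then Pnpt1 and Tmem192. Ly9 had no close match, with D430042O09Rik, Cyfip1 and Nup37 at 0.773 to 0.808.

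The genes through which SLAM receptors and SAP signal were compared as a list of 25, of which 24 were tested. Between cKO and WT Tregs 0 were called higher and 1 lower, a share near the 3.52% of all genes called (7.72% of those with a mean of at least 1000 normalized counts), with a median log2 fold change of 0.03 beside 0.05 over all genes. The one called was Rasa3, a GTPase-activating protein for Ras and Rap, at 12715 ± 980.0 in cKO (SD, n = 5) and 15917 ± 416.9 normalized counts in WT Tregs (SD, n = 4), a log2 fold change of -0.33 ± 0.07 (SE, adjusted p = 0.0151). Fyn, the kinase that SAP recruits, was at 21013 ± 981.3 in cKO and 19942 ± 171.3 in WT Tregs (log2 fold change 0.07, adjusted p = 0.589). Between CD25lo and CD25hi Tregs, where 1.62% of all genes and 2.9% of those with a mean of at least 1000 normalized counts were called, 1 was called higher and 0 lower. This was Malt1, a protease of antigen receptor signaling to NF-κB, at 7299 ± 839.7 in CD25lo (SD, n = 2) and 5222 ± 218.5 in CD25hi Tregs (SD, n = 3), a log2 fold change of 0.48 ± 0.11 (SE, adjusted p = 0.0295). The count between cKO and WT Tregs was 0 without cKO replicate 1 and 2 without cKO replicate 2 or WT replicate 3. That between CD25lo and CD25hi Tregs was 0 without any 1 of the CD25hi libraries or CD25lo replicate 2, and 2 without WT replicate 2 or WT replicate 4. With DESeq2, 6 of this list were called between cKO and WT Tregs, where 9.3% of the genes with an adjusted p were, and with library sex as a term 0 were.

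Cd2, Cd244, Slamf8 and Slamf9, the other SLAM and CD2 family receptors tested, were not called in either comparison with limma. Another receptor compared with them, Cd101, belongs to another group of immunoglobulin-like receptors and was called in cKO against WT Tregs, where 3.52% of all genes and 7.72% of those with a mean of at least 1000 normalized counts were called. It was at 1683 to 2152 normalized counts in cKO and 1261 to 1485 in WT Tregs (log2 fold change 0.48 ± 0.10 SE, adjusted p = 0.011). With DESeq2 1 of these 5 receptors was called between cKO and WT Tregs and 1 between CD25lo and CD25hi Tregs. Of all genes with an adjusted p, 9.3% and 5.26% were. With library sex as a term 0 of these 5 were called.

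SAP is best known in follicular T cells, and 23 genes of these cells were compared, all tested. Between cKO and WT Tregs 3 were called higher and 2 lower, with a median log2 fold change of 0.24 beside 0.05 over all genes. The share called was 3.52% of all genes and 7.72% of those with a mean of at least 1000 normalized counts, where most of this list lies. Bcl6, the transcription factor that defines follicular T cells, was at 1958 to 2346 normalized counts in cKO and 1338 to 1545 in WT Tregs (log2 fold change 0.55 ± 0.09 SE, adjusted p = 0.00292). Icos, a costimulatory receptor, was at 7896 to 11853 in cKO and 5578 to 8333 in WT Tregs (log2 fold change 0.53 ± 0.13 SE, adjusted p = 0.032). Btla, an inhibitory receptor, rose by 0.35 ± 0.09 (SE, adjusted p = 0.0319), and Klf2, a factor that keeps T cells circulating, changed by -0.68 ± 0.16 (SE, adjusted p = 0.0256). The Klf2 ranges overlapped, at 20058 to 29730 normalized counts in cKO and 24546 to 47217 in WT Tregs. Low Klf2 was not particular to cKO Tregs, with 23068 to 29868 in CD25lo and 16530.5 to 21230 in CD25hi Tregs. Among the genes not called were Cxcr5 (log2 fold change 0.58, adjusted p = 0.0996 from limma) and Pdcd1 (0.375, adjusted p = 0.234). The other gene called lower, Il6ra, changed by -0.32 ± 0.09 (SE, adjusted p = 0.0489 from limma), which completes the 5 called. This count of 5 was 8 with the immediate early level as a term and 0 with library sex as a term. It was 1 without cKO replicate 1, cKO replicate 3 or WT replicate 3, 2 without WT replicate 1, and 3 when WT replicate 2 or 4, or cKO replicate 4 or 5, was left out.

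Between CD25lo and CD25hi Tregs 3 of the 23 follicular genes were called higher and 0 lower, with a median log2 fold change of 0.32 beside 0.00 over all genes. The share called was 1.62% of all genes and 2.9% of those with a mean of at least 1000 normalized counts. Tcf7, which encodes TCF1, was at 49785 ± 1230 in CD25lo (SD, n = 2) and 32301 ± 2495 normalized counts in CD25hi Tregs (SD, n = 3), a log2 fold change of 0.63 ± 0.09 (SE, adjusted p = 0.00136). Cd40lg, the ligand that T cells show to B cells, rose by 0.88 ± 0.15 (SE, adjusted p = 0.00449). Il4, a cytokine, was at 24.2 to 37.3 in CD25lo and 0 to 1.0 normalized counts in CD25hi Tregs (adjusted p = 0.0252).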

How the data were processed

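Reads were single-end, 50 bases long, and the authors aligned them to GRCm38 (Ensembl 78) with STAR 2.7.2b. The counting program and its use of strand are not given in the sources used here. The authors deposited a signal for every gene in each library, namely its reads scaled by the size factor of its library from DESeq2 1.24.0, given to 0.1 (normalized counts). The size factors were found from the spacing of low values, and with them 100.0% of values were whole reads within 0.055 normalized counts, and these recovered reads served the alternatives with edgeR and DESeq2. The deposited table lists 55536 genes, 48363 of them with values. It also holds stabilized values, GC content, and the fold changes, p-values and FDR of the authors' comparisons, none of which was used.

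Groups and replicate numbers were taken from the titles of the samples. The 4 group means were fitted to log2(normalized count + 1) over the 14 libraries with limma 3.58.1 (empirical Bayes with an intensity trend, R 4.3.3), for genes that reached 10 normalized counts in 2 libraries. P-values were adjusted over all 16241 genes (Benjamini-Hochberg), and a gene was called at an adjusted p under 0.05. Because the values were not raw counts, limma was the main test. The fit was also run on simulated reads with known changes. These held no difference in sex or immediate early level between libraries, so that run does not bear on those limits. Fold changes are on the log2(normalized count + 1) scale. No libraries were duplicates.

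The members and gene lists were chosen with earlier results of these data known. Named genes are the 7 members, up to 4 called genes per list or locus by adjusted p, and the 3 genes most like each member by Pearson r. Others, such as Fyn, Cd2, Il6ra, Cxcr5, Pdcd1 and some marker genes, were named after their values were seen. One marker and one gene picked by likeness are not reported here. Exon lengths and 3′ UTRs come from GENCODE M21, miRNA sequences from RefSeq. Alternatives were DESeq2 1.42.0, edgeR 4.0.16 (DESeq2 size factors or TMM), pseudocounts of 0.5 and 5, no filter or one of 100 normalized counts, a fit to the 2 groups of a comparison alone, a block for the replicate number, a term for the immediate early level or for library sex, and each library left out in turn. Tables were handled with python 3.11.15, pandas 2.3.3, numpy 2.4.6 and scipy 1.17.1.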

Additional observations from a re-analysis of the deposited data

Results flagged for a closer look

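Cd48 in WT replicate 2 stood at 4692 normalized counts, away from the other 3 WT libraries at 4090 to 4154, and the gap took up 0.894 of the range of the group, above Dixon's 95% limit for 4 libraries. Of the 14 groups of values tested in this way (7 genes in cKO and in WT Tregs), about 1 in 20 would be set apart by chance. The log2 fold change of Cd48 between cKO and WT Tregs stayed between -0.12 and -0.05 with any 1 library left out, and it was not called.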

How the results depend on the processing

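Sh2d1a was called between cKO and WT Tregs under every alternative run, and the count of called genes among the 7, 2 in the main fit, was 1 with the replicate number as a block and 1 with library sex as a term, Slamf6 being the gene lost in each. It was 2 with any single library left out. Between CD25lo and CD25hi Tregs, the count was 0 in the main fit, 1 with a filter of 100 normalized counts, 1 with the immediate early level as a term, 2 with DESeq2, and 0 to 1 with single libraries left out. With the replicate block it was 0. Same-numbered libraries did not deviate together (correlations of -0.284 to -0.132 for cKO and WT, 0.077 and -0.03 for CD25lo and CD25hi). No sign of pairing by number was thus seen for cKO and WT. For the sorted libraries this could not be decided, because the deviations of 2 CD25lo libraries from their mean mirror each other. Of 343 fold changes of single genes under the alternatives, 334 kept their side of the threshold, 7 came under it and 2 rose above it. This ratio is a weak measure of robustness. Most of these results were far from the threshold in the main fit, and leaving out a library outside a comparison leaves its fold changes as they were. Over the alternatives the count of called SLAM signaling partners between cKO and WT Tregs ran from 0 to 6 (main 1) and that of follicular T cell genes from 0 to 8 (main 5), and of 196 such list counts 38 moved by over 1.5 times. Between CD25lo and CD25hi Tregs the counts ran from 0 to 2 (main 1) and from 2 to 5 (main 3). Leaving out a CD25lo library leaves 1, which is then assumed to vary like the other groups. The main limits are the 2 CD25lo libraries, the single female WT library and the unequal immediate early levels within the WT and within the cKO libraries.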

Other observations

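Gm10521, which lies between Cd84 and Slamf6 on chromosome 1, was at 1080 to 1244 normalized counts in CD25lo and 827.1 to 1086 in CD25hi Tregs, and at 536.6 to 1010 in cKO and 588.3 to 1139 in WT Tregs, and it was not called in either comparison. Gm37065, which overlaps the start of Slamf6 on the other strand, was at 136.4 to 239.2 in CD25lo and 25.5 to 65.7 in CD25hi Tregs, with no overlap and an adjusted p of 0.267 from limma.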
